A study of Mus musculus with 12 samples.

Results

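The TNF ligand and receptor superfamily was followed in pancreatic tumor cells that lack DKK3. The family was taken as every protein-coding gene whose name begins with Tnfsf or Tnfrsf, together with Tnf, Lta, Ltb, Ltbr, Fas, Fasl, Cd27, Cd40, Cd70, Eda2r and Ngfr. These were 43 of 57186 genes, and 17 of them encode ligands and 26 encode receptors. The cells were 3 DDKC lines, DDKC_9750, DDKC_9790 and DDKC_9804, each grown from an endpoint tumor of a mouse with a ubiquitous Dkk3 knockout and Ptf1a Cre/+, which limits recombination to the pancreatic lineage. Treated and untreated cells thus share the same genotype, the knockout included. Each line was sequenced untreated and after treatment with recombinant DKK3 (rDKK3), in 2 libraries per line and condition and 12 libraries in all. The comparison asks which genes of a tumor cell without its own DKK3 respond when the secreted protein is supplied from outside. The age of the mice, the dose and the number of cultures behind each pair of libraries are not given in the labels.

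TNF family ligands are mostly type II membrane proteins that act as trimers on the cell surface or after they are shed by proteases. Their receptors carry cysteine-rich domains outside the cell. One class of receptors has a death domain inside the cell and can start apoptosis or necroptosis, another binds TRAF adaptor proteins and starts NF-κB and MAP kinase signalling, and the decoy receptors bind ligand without passing on a signal. Tumor cells of epithelial origin commonly express receptors such as TNFR1, the lymphotoxin β receptor and FN14, whereas many ligands of the family are known from lymphocytes and myeloid cells.

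Levels are given as CPM, the counts of a gene relative to the library total, scaled by TMM factors. Total counts ranged from 3822987 to 24541083 per library, and the treated libraries of lines DDKC_9750 and DDKC_9804 were shallower than the untreated ones, so that 3 counts, taken as the floor, stood for 0.785 CPM in the shallowest library and 0.122 CPM in the deepest. Dkk3 had 0 counts in 11 libraries and 1 count in a treated library of line DDKC_9750. The cells carried epithelial and mesenchymal markers together: Krt8 lay between 811 and 2835 CPM and Vim between 1612 and 4788 CPM in the 6 cultures. Epcam was low, at no more than 2.04 CPM, and of 6 acinar markers Cpa1, Pnlip and Ptf1a had no count and Cela1 alone reached 1 CPM, with 11.7 CPM without and 10.8 CPM with rDKK3 in line DDKC_9750 and 4.85 and 3.13 CPM in line DDKC_9790. Of 9 leukocyte markers, 2 reached 1 CPM in any library, Cd68 and Csf1r, and Cd3e, Adgre1 and Lyz2 had no count. The summed leukocyte markers ranged from 8.30 to 29.9 CPM in untreated and from 9.05 to 47.1 CPM in treated libraries. Of 4 endothelial markers Kdr alone reached 1 CPM, and of 6 fibroblast markers Pdgfra, Pdgfrb and Col1a1 did. In line DDKC_9804 edgeR called Kdr and Pdgfra higher after rDKK3, by 1.13 and 2.09 on the log2 scale, and Pdgfrb lower, by 2.65. Kdr was called lower in line DDKC_9790, and Pdgfra and Col1a1 in line DDKC_9750. Their part in the values of the members was not tested.

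Of the 43 members, 25 passed the filter on low counts and were tested, 9 ligands and 16 receptors. Ltb and Tnfsf10 reached the minimum of the filter only in the treated libraries of line DDKC_9750, and Tnfsf4 only in its untreated ones, so these 3 were kept where they are high, and their values are given as a description. Another 9 had counts above the floor in at least 1 line and condition but were removed by the filter, 5 stayed at or under the floor throughout, and 4 had no count in any library. The 4 were all ligands: Fasl, the ligand of the death receptor FAS, Cd70, the ligand of CD27, Tnfsf14, which encodes LIGHT, and Tnfsf18, the ligand of GITR. Those at or under the floor were Lta and Tnfsf8 among the ligands and Tnfrsf8, Tnfrsf13c and Tnfrsf17 among the receptors. For the 4 members without a count, the deepest culture allowed a level of up to 0.0830 CPM, and the shallowest, treated line DDKC_9750, up to 0.303 CPM. Of the superfamily genes outside the rule, Relt, Rell1 and Rell2 were tested, Eda and Edaradd lay at or under the floor, and Cd40lg and Edar had no count.

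Receptors dominated the length-scaled levels, for which CPM was divided by the kilobases of annotated exon. Tnfrsf12a, which encodes FN14, the receptor of TWEAK, led with 247 CPM per kb on average over the 6 cultures. It was followed by Tnfrsf23 with 54.3, Ltbr with 49.3, Tnfrsf1a with 46.7, Tnfrsf21 with 37.4, Tnfrsf10b with 32.9, Tnfrsf22 with 25.7 and Tnfrsf1b with 15.4 CPM per kb. The highest ligand was Tnfsf9, the ligand of 4-1BB, with 13.3 CPM per kb, and the next was Tnfsf12, which encodes TWEAK, with 7.06 CPM per kb. The lowest Tnfrsf12a culture, at 129 CPM per kb, was above the highest culture of every other member, which was Tnfrsf23 at 81.8 CPM per kb. The members after it follow their means over lines that differ, and neighbours could not be ordered, since their ranges overlapped: 10.4 to 81.8 CPM per kb for Tnfrsf23, 39.04 to 68.4 for Ltbr, 38.0 to 57.8 for Tnfrsf1a and 14.04 to 70.3 for Tnfrsf21. In line DDKC_9750 Tnfrsf23 lay below Ltbr and Tnfrsf1a in both conditions.

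**Figure D1:**
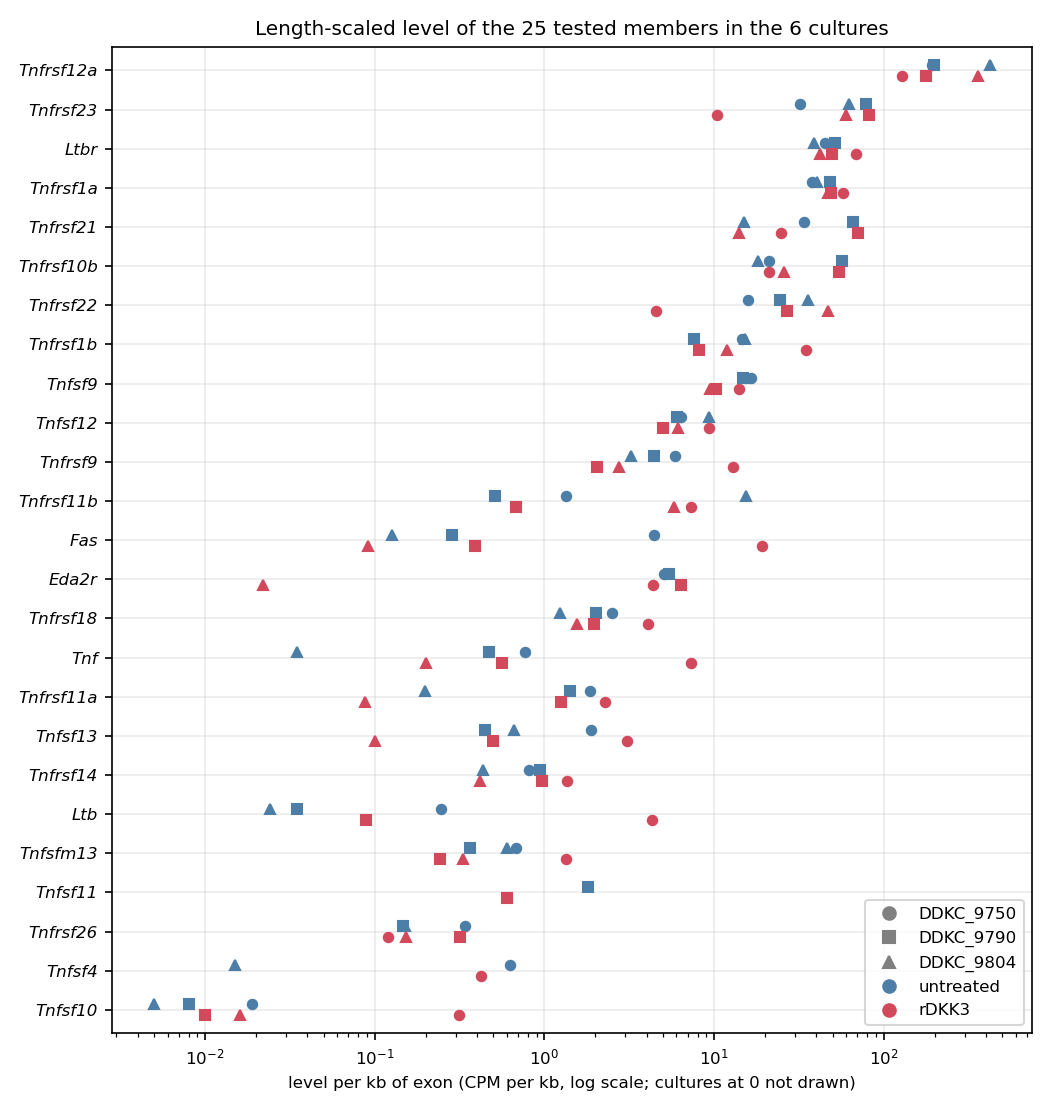
Level of the 25 tested members in CPM per kb of exon on a log axis, with 1 point for each of the 6 cultures, shaped by line and coloured by treatment; cultures at 0 are not drawn. Receptors fill the 8 highest places by mean, Tnfrsf12a lies apart from the rest, and Fas, Tnf and Ltb are spread widely, with line DDKC_9750 above the other lines.

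Over the 3 lines no member passed the test of an rDKK3 effect when each pair of libraries counted once. With the 2 libraries of a line and condition summed and the line in the model, 0 of 25 members had an adjusted p under 0.05 (edgeR quasi-likelihood test, Benjamini-Hochberg over 15165 genes). DESeq2 also called 0 members, and 4 members had an unadjusted p under 0.05 by edgeR: Tnf and Tnfsf9, and also Tnfsf10 and Ltb, which the filter kept only for their high group, so that theirs is no support. Of all 15165 genes 1 was called, 0.00659%, and 1294 had an unadjusted p under 0.05. The log2 fold changes of Ltb, Tnfsf10 and Tnf were 3.25 ± 0.997, 2.88 ± 1.07 and 2.03 ± 0.73 (SE, n = 3 lines), with adjusted p of 0.578, 0.582 and 0.580 by edgeR, and without line DDKC_9750 they were 0.51, 0.84 and 0.80. Log2 fold changes of 1 sign in all 3 lines were seen in 5 of the 25 members, or 20%, and in 32.4% of all genes tested, a difference that was not tested. Members with few or no counts in a line, such as Ltb, Tnfsf4 and Tnfsf11, have no reliable sign there. The 5 members of 1 sign were Tnf, Tnfrsf1a and Tnfsf10 with positive and Tnfrsf12a and Tnfsf9 with negative values. In line DDKC_9804 the sign of Tnf rests on 2 untreated and 4 treated counts. Tnfsf10 had 1 untreated and 1 treated count in each of lines DDKC_9790 and DDKC_9804, so that its sign there follows the depth of the libraries.

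Taking the 12 libraries as separate samples called 8 members, 5 higher and 3 lower, against a background of 7.95% of genes higher and 10.1% lower. The higher members were Ltb, Tnfsf10, Tnf, Fas and Tnfrsf1a, with log2 fold changes of 3.43, 3.0, 2.10, 1.61 and 0.27. The lower members were Tnfsf11, Tnfsf9 and Tnfrsf12a, with -1.60, -0.47 and -0.34. Ltb and Tnfsf10 were kept in the test by the treated libraries of line DDKC_9750 alone, so these 2 of the 5 higher calls are no independent support and the count is not read against the background. The spread in this fit includes that between libraries of 1 pair. Once a shift between the 2 series of library numbers was fitted for each gene, the remaining differences of a pair were smaller than counting error (mean deviance per degree of freedom 0.780, against 6.44 without the shift). The 12-library fit leaves that shift in. None of these calls was made when each pair was summed.

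The response was next compared line by line. Within a line, p-values rest on the spread between libraries and compare the libraries of these cultures, not what another culture of the line would give. In line DDKC_9750, 16 of 25 members were called, 12 of them higher and 4 lower, against 17.9% of all genes higher and 17.9% lower. The 12 include Ltb and Tnfsf10, kept by the treated libraries of this line alone, so the 12 are not read against the background. In line DDKC_9790, 3 members were called, all lower, against 12.3% of all genes higher and 13.9% lower, whereas 3 higher and 4 lower members were called there with the library series as a covariate. In line DDKC_9804, 4 were called higher and 6 lower, against 20.1% and 25.3% of all genes. The median log2 fold change of the tested members was 0.60 in line DDKC_9750, 0.05 in line DDKC_9790 and -0.12 in line DDKC_9804, where the medians over all genes were -0.019, -0.0049 and -0.046. No member was called in all 3 lines, 3 were called the same way in more than 1 line (Tnfrsf1a, Tnfrsf12a and Tnfsf9), and 5 were called higher in 1 line and lower in another (Tnfrsf1b, Tnfrsf9, Tnfrsf11b, Tnfrsf22 and Tnfsf12). The shares of all genes called in these ways were not counted, so these counts describe the members and are not read as particular to the family. With DESeq2, 12 of the 16 calls in line DDKC_9750, 1 of the 3 in line DDKC_9790 and 6 of the 10 in line DDKC_9804 were made as well. Ltb is among these 12, and its call is no independent support. The interaction of line and treatment, which also rests on the spread between libraries, was called for 18 of 25 members, against 49.3% of all genes, and DESeq2 called 11 of the 18.

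**Figure D2:**
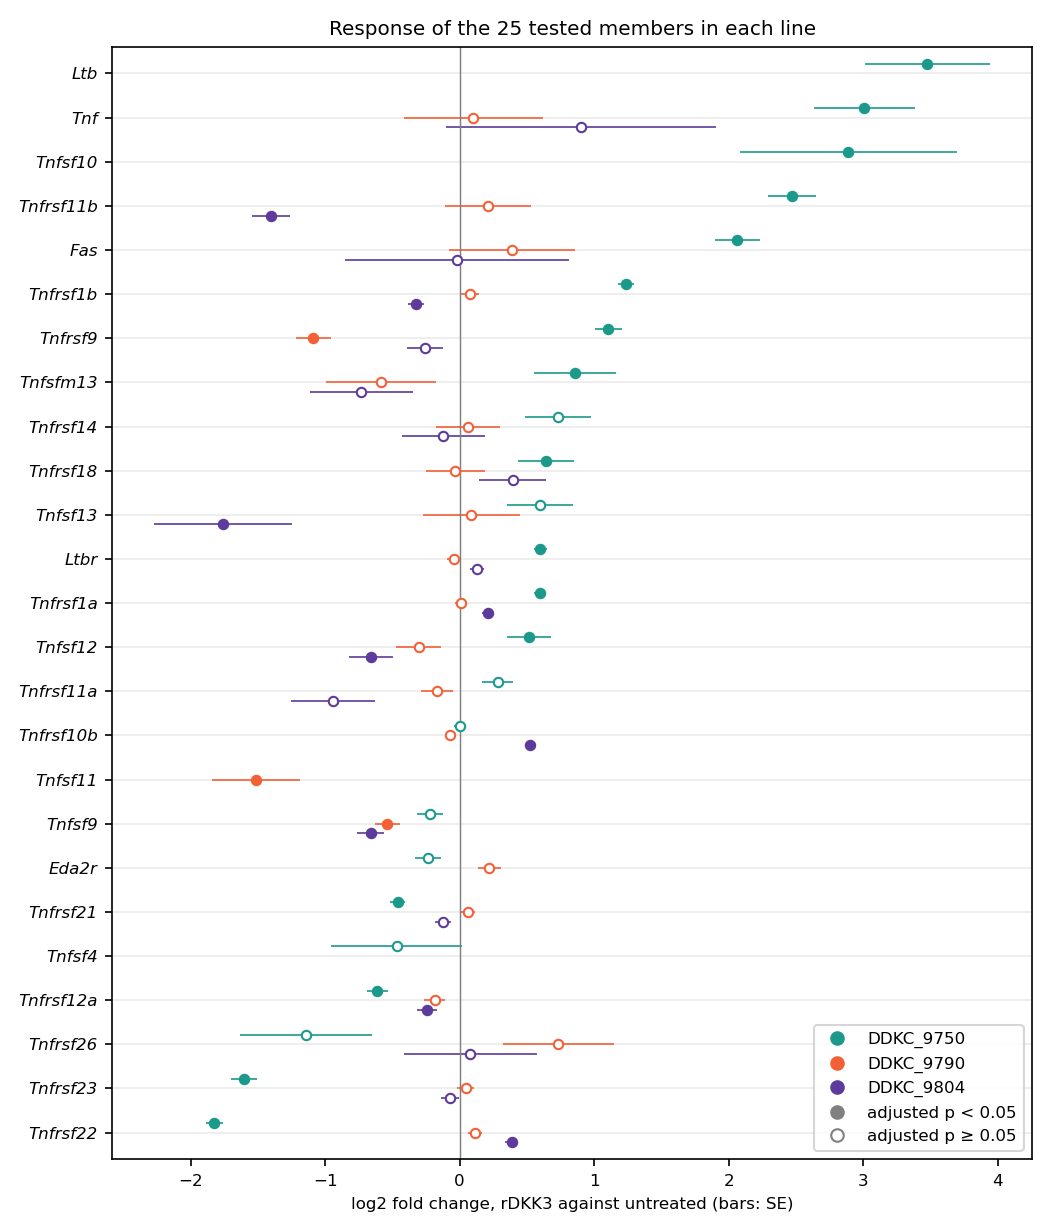
Log2 fold change of rDKK3 against untreated for the 25 tested members in lines DDKC_9750, DDKC_9790 and DDKC_9804; bars give the SE from the edgeR fit on 12 libraries and filled points an adjusted p under 0.05. A line in which a member had at most 3 counts in both conditions is not drawn. The values of line DDKC_9750 run from -1.82 for Tnfrsf22 to 3.48 for Ltb, and those of line DDKC_9790 from -1.52 for Tnfsf11 to 0.73 for Tnfrsf26.

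The ligands Tnf and Ltb were called in line DDKC_9750 and in no other line. Tnf encodes the founding cytokine of the family, and lymphotoxin β, the product of Ltb, anchors lymphotoxin at the cell surface and signals through LTBR. In values that give the lower library number of a pair first, here and below, Tnf (ENSMUSG00000024401.15) was at 1.40 and 1.19 CPM in the untreated libraries of line DDKC_9750 and at 10.6 and 12.9 CPM after rDKK3. It rose there by 3.01 ± 0.37 on the log2 scale (SE, edgeR adjusted p = 8.87e-05), and the treated libraries did not overlap the untreated ones. In RNA of a whole culture, more cells that express a gene and more RNA per cell cannot be told apart. In line DDKC_9790 Tnf was at 0.827 and 0.749 CPM untreated and 0.699 and 1.05 CPM treated, and these ranges overlapped. In line DDKC_9804 it rested on 2 untreated and 4 treated counts, a ratio of 5.92 with a 95% exact counting interval from 0.848 to 65.4. Ltb (ENSMUSG00000024399.6) went from 0.262 and 0.325 CPM to 4.77 and 5.53 CPM in line DDKC_9750, a log2 fold change of 3.48 ± 0.47 (SE), and had at most 2 counts in every culture of the other lines. Since the 19 and 35 counts of the treated libraries were what kept Ltb in the test, its call there is no independent support. The leukocyte markers Cd68 and Csf1r were at 2.03 and 7.50 CPM untreated and at 3.01 and 7.27 CPM treated in line DDKC_9750, where Ptprc had 0 counts without and 0.0970 CPM with rDKK3. Cd68 was called higher in line DDKC_9790 (0.71 on the log2 scale, edgeR adjusted p = 0.000230) and in line DDKC_9804 (1.28, adjusted p = 2.40e-05) but not in line DDKC_9750 (0.46, adjusted p = 0.174), and Csf1r was called in no line. The part of the leukocyte markers in the values of Tnf and Ltb was not tested.

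Tnfsf10, which encodes TRAIL, the ligand of the death receptor encoded by Tnfrsf10b, was barely counted. In line DDKC_9750 it had 3 untreated and 17 treated counts, a ratio of 16.5 with a 95% exact counting interval from 4.76 to 87.7, and DESeq2 did not call it (adjusted p = 0.136). The 9 and 8 counts of the treated libraries were what kept it in the test, so the call of edgeR there is no independent support. It had 1 count in each of the other 4 cultures. Tnfsf13b, which encodes the B-cell factor BAFF and was removed by the filter, had 3 untreated and 12 treated counts in line DDKC_9750, a ratio of 11.6 with an interval from 3.14 to 64.2, and was singled out after its values were seen.

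Tnfsf9 was the one ligand called lower after rDKK3 in more than 1 line. It fell in line DDKC_9790 from 20.3 and 19.3 CPM to 13.4 and 13.7 CPM, by 0.54 ± 0.10 on the log2 scale (SE, edgeR adjusted p = 0.00283), a call that DESeq2 did not make (adjusted p = 0.0978). In line DDKC_9804 it fell from 20.6 and 19.6 CPM to 12.9 and 12.3 CPM, by 0.66 ± 0.10 (SE, edgeR adjusted p = 0.000389). In line DDKC_9750 it stood at 23.2 and 21.3 CPM untreated and 21.1 and 17.2 CPM treated, with an adjusted p of 0.105. The treated libraries lay below the untreated ones in each of the 3 lines, and the interaction with the line had an adjusted p of 0.0744.

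Tnfsf11, which encodes RANKL, was counted in line DDKC_9790 alone. It fell there from 4.83 and 3.68 CPM to 1.40 and 1.31 CPM, by 1.52 ± 0.33 on the log2 scale (SE, edgeR adjusted p = 0.0163), and had 0 counts in the 8 libraries of the other lines. The call was lost when any of 3 of the 4 libraries of the line was left out, and DESeq2 gave no adjusted p. Its receptor RANK, encoded by Tnfrsf11a, had its highest values in line DDKC_9750, with 12.02 and 14.8 CPM without and with rDKK3, against 9.23 and 8.15 CPM in line DDKC_9790 and 1.28 and 0.574 CPM in line DDKC_9804. Tnfrsf11a was not called in any line and is outside the naming rule. Osteoprotegerin, the secreted decoy receptor of RANKL and TRAIL encoded by Tnfrsf11b, moved in opposite directions. It rose in line DDKC_9750 from 3.50 and 4.39 CPM to 26.1 and 19.4 CPM (log2 fold change 2.47 ± 0.18, SE, edgeR adjusted p = 2.93e-06) and fell in line DDKC_9804 from 48.5 and 45.7 CPM to 18.3 and 17.1 CPM (-1.40 ± 0.14, adjusted p = 2.67e-05). In line DDKC_9790 it stayed between 1.40 and 2.44 CPM, so the line that held RANKL mRNA had the least mRNA of its decoy.

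Tnfsf12, Tnfsf13 and Tnfsfm13 overlap on chromosome 11 (69573403 to 69586924, GRCm39), where Tnfsfm13 joins exons of the other two. Exons of the partner genes on the same strand cover 87.7% of Tnfsfm13, 60.0% of Tnfsf13 and 57.9% of Tnfsf12, so how the counting divided their reads is uncertain. Tnfsf12 was called higher in line DDKC_9750 (12.3 and 10.0 CPM untreated, 16.8 and 15.2 CPM treated, edgeR adjusted p = 0.0307) and lower in line DDKC_9804 (18.3 and 14.6 against 9.69 and 10.9 CPM, adjusted p = 0.00884). The first of these calls was lost under 4 of 8 alternatives, DESeq2 and 3 left-out libraries, and the second under 2 of 8, DESeq2 and 1 left-out library. Tnfsfm13 was called higher in line DDKC_9750 (edgeR adjusted p = 0.0343), a call lost under 6 of 8 alternatives. Tnfsf13, which encodes APRIL, was called lower in line DDKC_9804 on 38 untreated and 2 treated counts, a ratio of 0.156 with a 95% exact counting interval from 0.0180 to 0.603, and the call was lost with DESeq2 and without 1 library.

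**Figure D3:**
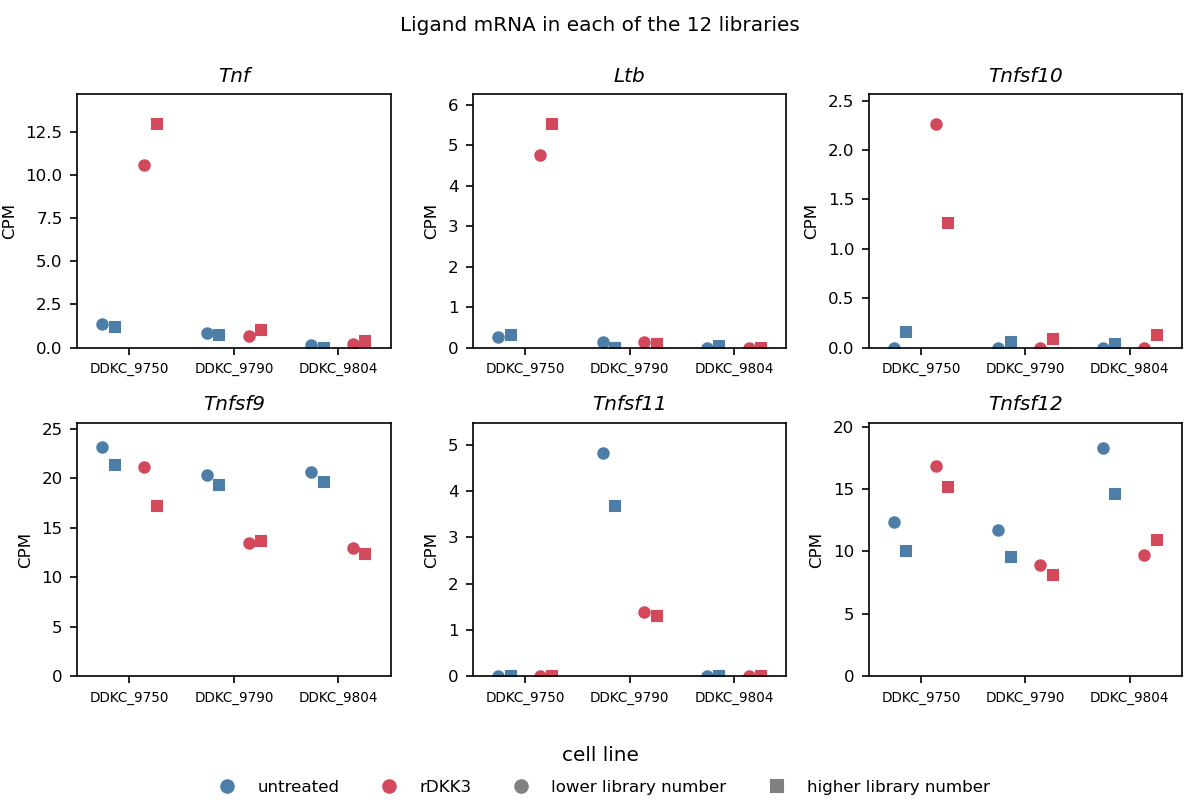
CPM of 6 ligands in each of the 12 libraries by line, untreated in blue and rDKK3 in red, with circles for the lower and squares for the higher library number of a pair. Tnf, Ltb and Tnfsf10 stand out in the treated libraries of line DDKC_9750, Tnfsf9 is lower after treatment in every line, and Tnfsf11 appears in line DDKC_9790 only.

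Tnf, Ltb and Fas all had higher values in treated line DDKC_9750, and their promoter sequences are shown for that reason. Tnf and Ltb lie with Lta within 10.9 kb of chromosome 17 (35413415 to 35424327, GRCm39), and Lta stayed at or under the floor. Fas is on chromosome 19 (34268066 to 34305172). The sequences are those of RefSeq from the GRCm38.p6 table, each matched exactly and once to GRCm39, and run 5′ to 3′ on the strand of the gene up to its start. The window is 250 bases, and for Ltb it is cut to the 182 bases before the annotated gene. Capitals mark matches to the consensus κB motif, to TTCNNNGAA (the GAS element bound by STAT factors) and to TGANTCA (the AP-1 element), searched on both strands.
Tnf, chr17:35420984-35421233, minus strand: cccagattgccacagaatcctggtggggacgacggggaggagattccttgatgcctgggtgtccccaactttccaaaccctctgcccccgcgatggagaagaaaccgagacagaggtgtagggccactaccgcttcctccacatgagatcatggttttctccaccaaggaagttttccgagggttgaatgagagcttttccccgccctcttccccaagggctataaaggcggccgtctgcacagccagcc
Ltb, chr17:35413233-35413414, plus strand: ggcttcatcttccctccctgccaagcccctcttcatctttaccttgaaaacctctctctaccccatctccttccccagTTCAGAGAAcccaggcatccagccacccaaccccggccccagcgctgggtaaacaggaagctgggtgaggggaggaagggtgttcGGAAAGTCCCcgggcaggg
Fas, chr19:34267809-34268058, plus strand: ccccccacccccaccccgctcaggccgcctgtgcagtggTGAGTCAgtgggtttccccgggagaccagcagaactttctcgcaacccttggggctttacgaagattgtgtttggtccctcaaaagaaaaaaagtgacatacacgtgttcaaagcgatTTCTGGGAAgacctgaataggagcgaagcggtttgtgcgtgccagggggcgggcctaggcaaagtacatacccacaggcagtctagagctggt

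The Ltb window holds a κB match that starts 87 bases and a TTCNNNGAA match that starts 172 bases before the RefSeq start. The Fas window holds a TTCNNNGAA match at 93 and a TGANTCA match at 211 bases before the start. The Tnf window holds none of these letters. Of 32851 RefSeq windows of 250 bases, 3.90% held a κB, 7.02% a TTCNNNGAA and 6.75% a TGANTCA match. Among 38 windows of the 34 members in the table, 3 held a κB, 8 a TTCNNNGAA and 6 a TGANTCA match, and the matches are a description of the letters only.

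Of the death receptors, Fas was nearly confined to line DDKC_9750. Fas (ENSMUSG00000024778.14), the receptor of FASL, was at 8.39 and 7.80 CPM in untreated line DDKC_9750 and at 34.4 CPM in both treated libraries, and rose by 2.07 ± 0.17 on the log2 scale (SE, edgeR adjusted p = 6.10e-06). In line DDKC_9790 Fas lay between 0.276 and 0.873 CPM and in line DDKC_9804 between 0.0880 and 0.295 CPM, and in these lines the conditions overlapped. Fas also differed between the lines when the treatment was in the model (edgeR adjusted p = 0.00510 on summed counts). Without line DDKC_9750 that call was lost (edgeR adjusted p = 0.1845). Fas reached the minimum of the filter only in line DDKC_9750, so the call is no independent support. The difference between the lines was called for 11 of 25 members, against 35.3% of all genes. Tnf, Ltb, Tnfsf4, Tnfsf11 and Eda2r, among the 11, also passed the filter only through lines where they are high. The count is therefore not read against the background. The interaction of line and treatment had an adjusted p of 0.0143 for Fas and 0.00971 for Tnf by edgeR, and of 0.0746 and 0.0428 by DESeq2, which did not call Fas.

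Tnfrsf1a, which encodes the TNF receptor TNFR1, was similar in the untreated lines, with 95.1 and 92.1 CPM in line DDKC_9750, 121 and 116 CPM in line DDKC_9790 and 102 and 96.7 CPM in line DDKC_9804. It rose to 143 and 140 CPM in line DDKC_9750 (log2 fold change 0.60 ± 0.04, SE, edgeR adjusted p = 2.70e-06) and to 116 and 113 CPM in line DDKC_9804 (0.21 ± 0.04, adjusted p = 0.00248). In line DDKC_9790, at 118 and 120 CPM after rDKK3, the libraries overlapped. Tnfrsf1b, which encodes the second TNF receptor TNFR2 without a death domain, responded in opposite directions. It rose in line DDKC_9750 from 76.2 and 70.6 CPM to 178 and 168 CPM, by 1.24 ± 0.06 on the log2 scale (SE, edgeR adjusted p = 1.38e-07). It fell in line DDKC_9804 from 72.8 and 75.5 CPM to 62.4 and 56.2 CPM, by 0.32 ± 0.06 (adjusted p = 0.00151), a call that DESeq2 did not make. Ltbr rose in line DDKC_9750 from 95.5 and 99.1 CPM to 146 and 149 CPM (log2 fold change 0.60 ± 0.05, SE, edgeR adjusted p = 6.95e-06). Ltbr and Tnfrsf1a lie with Cd27 within 129.9 kb of chromosome 6.

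Tnfrsf10b, the death receptor for TRAIL in the mouse, was at 61.3 and 62.6 CPM in untreated line DDKC_9804 and rose to 90.7 and 87.9 CPM (log2 fold change 0.53 ± 0.04, SE, edgeR adjusted p = 4.77e-06). It stayed between 70.7 and 75.4 CPM in line DDKC_9750 and between 185 and 195 CPM in line DDKC_9790, where the level was highest. Tnfrsf21, which encodes the death-domain receptor DR6, fell in line DDKC_9750 from 126 CPM in both libraries to 93.5 and 89.7 CPM (-0.46 ± 0.06, SE, edgeR adjusted p = 0.000113). Its level ranged from 241 to 258 CPM in line DDKC_9790 and from 49.5 to 59.0 CPM in line DDKC_9804. It differed between the lines (edgeR adjusted p = 0.00426), a call lost without line DDKC_9790 (edgeR adjusted p = 0.0513).

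Tnfrsf22 and Tnfrsf23, which encode mouse decoy receptors for TRAIL, both fell in line DDKC_9750. Tnfrsf22 (ENSMUSG00000010751.16) fell from 88.5 and 89.0 CPM to 23.9 and 26.1 CPM, by 1.82 ± 0.06 on the log2 scale (SE, edgeR adjusted p = 1.78e-08). Tnfrsf23 (ENSMUSG00000037613.17) fell from 45.2 and 49.5 CPM to 15.6 and 15.3 CPM, by 1.60 ± 0.09 (adjusted p = 5.78e-07). In line DDKC_9804 Tnfrsf22 rose from 194 and 201 CPM to 250 and 267 CPM (log2 fold change 0.39 ± 0.05, SE, edgeR adjusted p = 0.000114), while Tnfrsf23 overlapped between conditions at 81.4 to 95.1 CPM. In line DDKC_9790 neither was called, at 135 to 152 CPM for Tnfrsf22 and 116 to 120 CPM for Tnfrsf23. The 2 genes lie beside Tnfrsf26 within 78.2 kb of chromosome 7 (143161396 to 143239609, GRCm39). Tnfrsf26 had 33 untreated and 4 treated counts in line DDKC_9750, the treated ones near the floor, and was not called there (edgeR adjusted p = 0.0630). Since 20.6% of the 50-base stretches of Tnfrsf22 recur elsewhere, 720 of them in Tnfrsf23, and 15.7% of those of Tnfrsf23 recur in Tnfrsf22, part of their reads may be split between or lost from both.

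Tnfrsf12a was the most abundant member and was lower after rDKK3 in each line. It fell in line DDKC_9750 from 212 and 223 CPM to 132 and 153 CPM (-0.61 ± 0.08, SE, edgeR adjusted p = 0.000200) and in line DDKC_9804 from 464 and 487 CPM to 385 and 419 CPM (-0.24 ± 0.08, adjusted p = 0.0260), a call lost without either of 2 libraries. In line DDKC_9790 it went from 220 and 224 CPM to 184 and 208 CPM without passing the test (adjusted p = 0.123). Line DDKC_9804 was above the other lines in all of its libraries, and the difference between the lines was called (edgeR adjusted p = 0.00939 on summed counts). Without line DDKC_9804 that call was lost (edgeR adjusted p = 0.2995).

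The costimulatory receptor 4-1BB, encoded by Tnfrsf9, rose in line DDKC_9750 from 16.3 and 13.6 CPM to 33.7 and 31.1 CPM (log2 fold change 1.11 ± 0.10, SE, edgeR adjusted p = 1.39e-05). It fell in line DDKC_9790 from 11.4 and 10.7 CPM to 5.45 and 4.80 CPM (-1.09 ± 0.13, adjusted p = 0.000257) and was not called in line DDKC_9804, at 8.31 and 8.01 against 6.67 and 6.91 CPM. The receptor and its ligand Tnfsf9 were thus both lower in line DDKC_9790. Tnfrsf18, which encodes GITR, was called higher in line DDKC_9750, from 3.41 and 3.03 CPM to 5.03 and 5.21 CPM (edgeR adjusted p = 0.0268), and the call was lost under 6 of 8 alternatives.

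Eda2r, the receptor of ectodysplasin A2, was barely counted in line DDKC_9804. It was at 40.4 and 36.1 CPM untreated and 32.7 and 32.2 CPM treated in line DDKC_9750 and at 43.6 and 38.5 CPM untreated and 50.6 and 45.1 CPM treated in line DDKC_9790, so that the conditions overlapped in neither line but the test was passed in neither (edgeR adjusted p = 0.0926 and 0.0903). It had 0 counts in untreated and 2 counts in treated line DDKC_9804. The difference between lines was called (edgeR adjusted p = 0.00295) and was lost without line DDKC_9804 (edgeR adjusted p = 0.2177). Eda2r reached the minimum of the filter only in lines DDKC_9750 and DDKC_9790, so the call is no independent support. Eda2r also passed the test within line DDKC_9804 (edgeR adjusted p = 0.0448, lost under 6 of 8 alternatives), but both conditions are under the floor and no fold is given. Tnfrsf19, which encodes TROY and was removed by the filter, was counted in untreated line DDKC_9804 alone, with 36 counts against 0 after rDKK3, at least 4.06-fold lower against a floor of 3 counts over the pair. It was singled out after its values were seen. The 9 filtered members had from 4 counts (Ngfr) to 49 counts (Tnfsf13b) over all libraries.

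**Figure D4:**
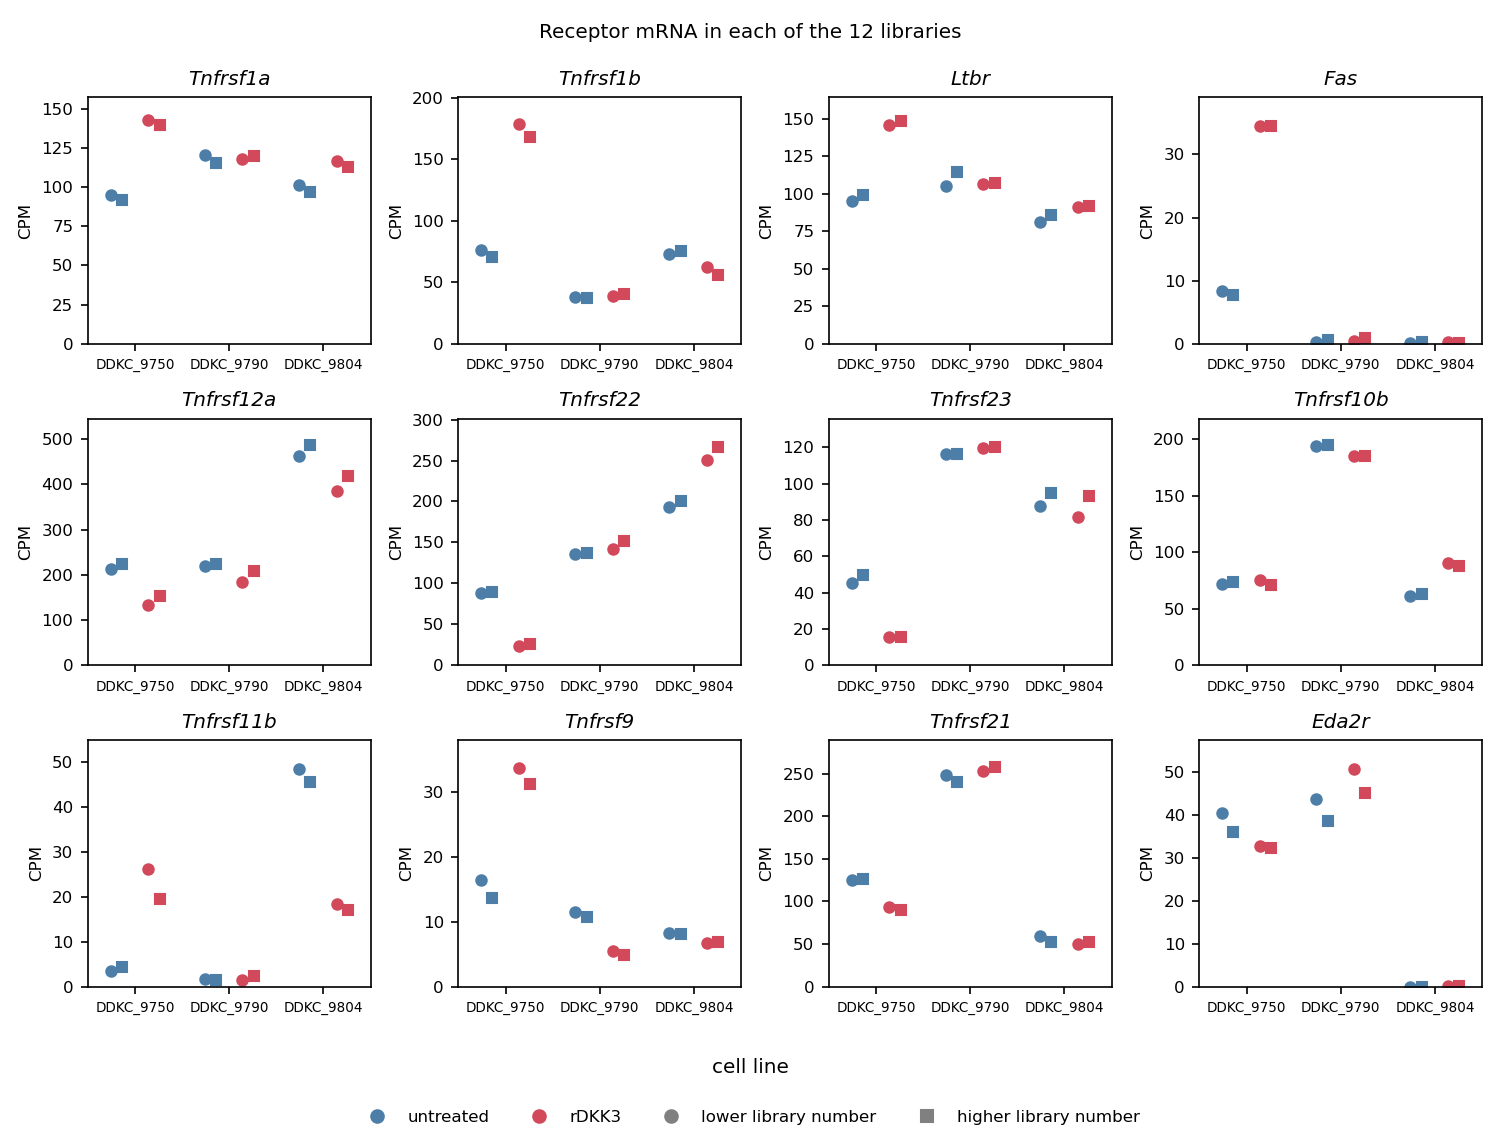
CPM of 12 receptors in each of the 12 libraries by line, untreated in blue and rDKK3 in red, with circles for the lower and squares for the higher library number of a pair. In line DDKC_9750 Tnfrsf1a, Tnfrsf1b, Ltbr, Fas, Tnfrsf11b and Tnfrsf9 are higher and Tnfrsf12a, Tnfrsf22, Tnfrsf23 and Tnfrsf21 lower after treatment, and the libraries of a pair lie close together.

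Downstream of the receptors, 34 genes of receptor-proximal signalling were all tested. None passed the summed test over the 3 lines, by edgeR, and 8 passed it when the 12 libraries were taken as separate, 5 higher and 3 lower, or 23.5% of the list against 18.1% of all genes. Within the lines 9 were higher and 6 lower in line DDKC_9750, 6 and 3 in line DDKC_9790, and 8 and 6 in line DDKC_9804. In all, 44.1%, 26.5% and 41.2% of the list were called in the 3 lines, against 35.8%, 26.2% and 45.4% of all genes. The median log2 fold change of the list was 0.03, 0.03 and 0.02 in the 3 lines, close to that over all genes. Birc3, which encodes the ubiquitin ligase cIAP2, rose in line DDKC_9750 by 1.49 on the log2 scale, from 20.8 to 60.3 CPM in the summed libraries (edgeR adjusted p = 3.97e-06), and was at 9.15 and 7.72 CPM in line DDKC_9790 and at 4.73 and 4.34 CPM in line DDKC_9804. Traf1, an adaptor that binds TNFR2 and cIAP proteins, fell in line DDKC_9750 from 7.73 to 3.10 CPM (-1.35, adjusted p = 9.32e-05). Bid, a proapoptotic substrate of caspase-8, rose there from 32.5 to 48.2 CPM (0.55, adjusted p = 0.000244).

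Several genes of the list were called in more than 1 line. Tnfaip3, which encodes A20, an inhibitor of NF-κB signalling, rose from 121 to 168 CPM in line DDKC_9750, from 39.9 to 46.4 CPM in line DDKC_9790 and from 79.4 to 179 CPM in line DDKC_9804, with log2 fold changes of 0.45, 0.19 and 1.16 (edgeR adjusted p = 9.53e-05, 0.0374 and 1.51e-07). Tnip2, which encodes an A20-binding protein, rose in each line by 0.49, 0.38 and 0.38, with adjusted p of 0.00986, 0.0350 and 0.0296. Tnip1 rose by 0.44 in line DDKC_9750 and by 0.38 in line DDKC_9790, and Traf3 by 0.48 and 0.40. Tradd, the adaptor of TNFR1, fell in line DDKC_9790 by 0.31 and in line DDKC_9804 by 0.63 and was not called in line DDKC_9750 (adjusted p = 0.0514). Traf5 fell in line DDKC_9790 by 0.78. In line DDKC_9804 Tank rose by 0.84, Cflar, an inhibitor of caspase-8, by 0.54 and Cyld, a deubiquitinase, by 0.50. Map3k7, the kinase TAK1, fell by 0.21 in line DDKC_9750 and rose by 0.25 in line DDKC_9790, and Tab1, its partner, fell by 0.26 in line DDKC_9750 and 0.48 in line DDKC_9804.

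Genes of ligand and receptor shedding were also compared. Adam17, the protease that releases TNF and its receptors, rose in line DDKC_9750 from 92.8 to 146 CPM in the summed libraries (log2 fold change 0.65, edgeR adjusted p = 1.99e-05) and was not called in lines DDKC_9790 and DDKC_9804. Rhbdf2, which encodes iRhom2, a partner of ADAM17, rose in all 3 lines, from 79.0 to 108 CPM, from 51.7 to 62.5 CPM and from 80.0 to 126 CPM, with log2 fold changes of 0.43, 0.25 and 0.68, and was not called over the 3 lines on summed counts (edgeR adjusted p = 0.578), where 0 of the 5 genes of this list were called. Rhbdf1, its paralog, rose by 0.50 in line DDKC_9750 and fell by 0.20 in line DDKC_9790 and by 0.24 in line DDKC_9804. Of the 5 genes of this list, 4 were called higher in line DDKC_9750, while 2 were called in line DDKC_9790, 1 in each direction, and 4 in line DDKC_9804, 2 in each direction, against 35.8%, 26.2% and 45.4% of all genes.

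**Figure D5:**
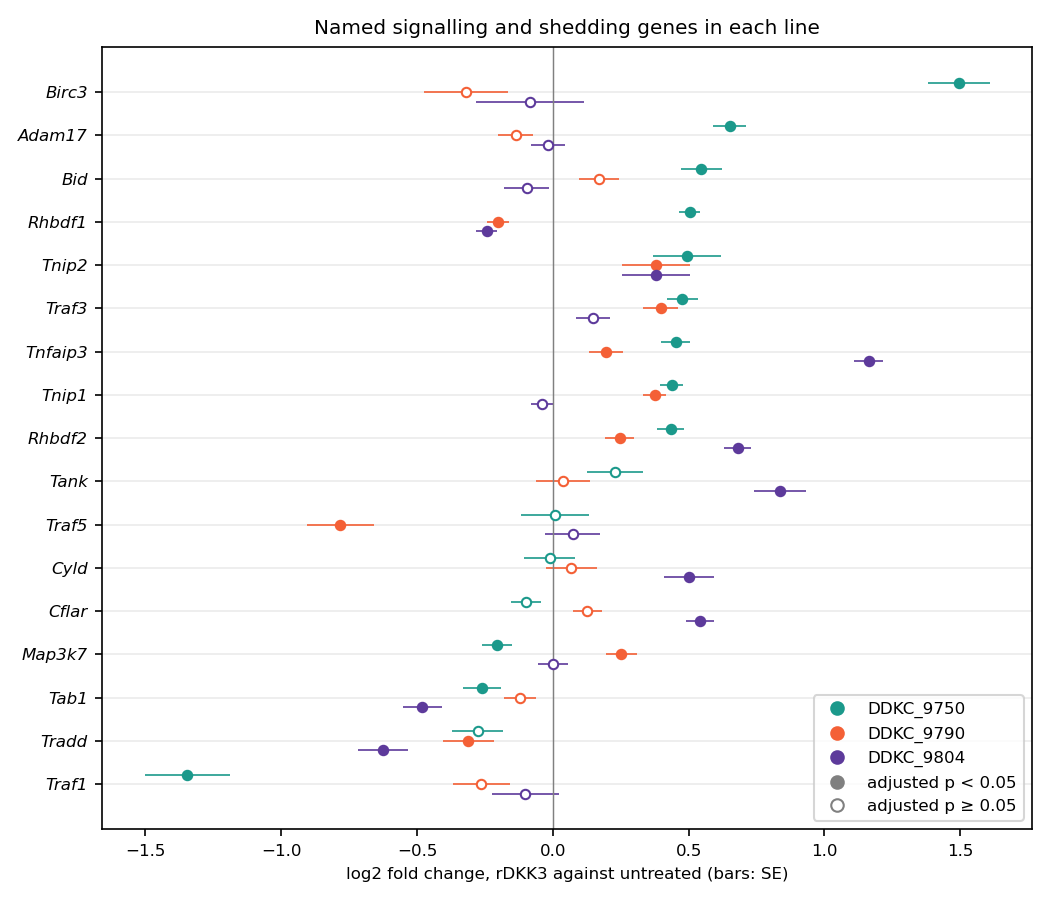
Log2 fold change of rDKK3 against untreated in each line for the signalling and shedding genes named in the text; bars give the SE from the edgeR fit on 12 libraries and filled points an adjusted p under 0.05. Tnip2, Tnfaip3 and Rhbdf2 lie above 0 with filled points in all 3 lines, and Birc3 and Traf1 lie apart in line DDKC_9750.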

How the data were processed

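The authors sequenced 50-base read pairs from directional libraries, aligned them with STAR 2.7.9a to GRCm39, assigned them to GENCODE exons by strand and deposited raw counts per gene without normalization. The 92 ERCC spike-in rows, all 0, were left out of the 57278 rows. Low genes were removed with filterByExpr of edgeR, given the 6 combinations of line and condition, and 15165 stayed. The main fit used the summed counts of each pair of libraries, TMM factors, the line and the treatment (edgeR 4.0.16 quasi-likelihood test, two-sided, adjusted p under 0.05, R 4.3.3). Samples were paired by the line that the labels name, and the log2 levels of same-line cultures deviated together from the group means with correlations of 0.822, 0.874 and 0.805. Effects within a line and the interaction used the 12 libraries. A log2 fold change within a line is the difference of mean log2 CPM with a prior count of 2, which understates changes of low genes. The SE beside it comes from the edgeR fit, which has its own estimate of the fold change, so the value and its SE are separate estimates. DESeq2 1.42.0, RLE factors, other filters and left-out samples were alternatives. Exon lengths and overlaps came from GENCODE M39, a later release than the counts used. Scripts were tested on simulated counts.

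Members, lists and tests were chosen with earlier results of these data known. Values are given for members called over the 3 lines in either fit, called in a line at a mean of at least 1 CPM, among the 10 highest by mean CPM, or shown in the paper (Tnf, Fas). Signalling and shedding genes were named as called, at most 6 per fit by size of change. Whether the libraries of a pair come from separate cultures is not given in the sources used here. Intervals and floors cover counting error only. One further allele of the lines, shared by all groups, is not reported here.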

Additional observations from a re-analysis of the deposited data

Results flagged for a closer look

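The response to rDKK3 differed between the lines for 18 of the 25 tested members in the interaction test of edgeR over the 12 libraries, with the spread between libraries as its error, against 49.3% of all genes. Adjusted p was lowest for Tnfrsf22 (8.91e-08), Tnfrsf1b (9.74e-07), Tnfrsf11b (2.32e-06), Tnfrsf23 (4.38e-06) and Tnfrsf9 (7.59e-06), which are receptors. Tnfrsf1b, Tnfrsf9, Tnfrsf11b and Tnfrsf22 were among those called in opposite directions in 2 lines. It was 2.97e-05 for Tnfrsf10b, 8.45e-05 for Tnfrsf1a, 0.000103 for Ltbr, 0.000827 for Tnfrsf21 and 0.0143 for Fas. The death-domain receptors Tnfrsf10b and Tnfrsf21 and the receptor Ltbr were each called in a single line. Of the ligands, Tnfsf13 had 0.00296, Tnfsf12 0.00535, Tnf 0.00971 and Tnfsfm13 0.0184. The remaining receptors were Eda2r with 0.00953, whose value includes line DDKC_9804 at or under the floor, Tnfrsf11a with 0.0139, Tnfrsf12a with 0.0179 and Tnfrsf26 with 0.0239. DESeq2 called 11 of the 18, and 3678 of 15165 genes in all, and did not call Fas, Eda2r, Tnfrsf11a, Tnfsf12, Tnfsf13 and Tnfsfm13, whose adjusted p there was 0.0746, 0.1025, 0.287, 0.0563, 0.1065 and 0.441, and it gave Tnfrsf26 no adjusted p. With the pairs summed, no spread is left for this test, so what separate cultures would give was not tested.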

How the results depend on the processing

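On summed counts with the line in the model, 1 gene and 0 members were called over the 3 lines. In its place, 2744 genes were called with 12 separate libraries (with 8 members), 95 with DESeq2, 90 without the filter, 6 with the lower-numbered libraries, 0 with at least 10 counts in every sample and from 0 to 2 without 1 line, and none of these but the 12-library fit called a member. With no replicate block, that is without the line, 0 genes were called on summed counts and 0 on 12 libraries. Differences between lines were called for 5348 genes and 11 members, for 11790 and 22 with 12 libraries, for 17 members without the filter, and for 1540 to 5053 genes and 6 to 10 members without 1 line, the lowest being without line DDKC_9790. Of the 11 members, Fas, Tnf, Ltb, Tnfsf4, Tnfsf11 and Eda2r passed the filter only through lines where they are high. DESeq2 called 3678 genes and 11 members in the interaction, 2794 genes in line DDKC_9750, 1259 and 1 member in line DDKC_9790, and 3698 and 6 members in line DDKC_9804. The library series as a covariate called 6066 genes and 7 members in line DDKC_9790, against 3975 and 3. Without 1 library, line DDKC_9790 gave from 2350 to 2803 genes and from 2 to 3 members. All other counts of genes and members stayed within 1.5 times. Under every alternative, 12 of 16 calls of members held in line DDKC_9750, 1 of 3 in line DDKC_9790 (Tnfrsf9) and 5 of 10 in line DDKC_9804, and no log2 fold change of a called member reversed. Ltb is among the 12, and its call is no independent support. The signalling and shedding genes were not refitted gene by gene under the alternatives. The cause of the lost calls was not tested. Treated libraries of lines DDKC_9750 and DDKC_9804 are shallow, so members under about 1 CPM are poorly resolved.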
